A study of Mus musculus with 4 samples.

Results

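The genes described here are 10 genes of blood vessels in cultured mouse spermatogonial stem cells, the germ cells from which sperm production is renewed. They are the ligands Vegfa, Vegfc and Angpt1, the receptors Kdr, Flt1, Tek and Tie1, and the endothelial surface genes Cdh5, Emcn and Pecam1. They were found by their gene name in the scanner files, which gave 22 of 41174 probes and 10 of 27729 gene names. Of these, 17 probes of 9 genes had a signal well above background, by the scanner's own mark, and were tested. The mark had to be set on 3 or 4 of the 4 arrays in one channel. The remaining 5 probes (the only one for Tie1, 1 further probe each for Kdr and Pecam1, and 2 for Flt1) were well above background on 0 of 4 arrays in either channel.

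The cells came from C57/BL6 x DBA/2 F1 mice at day 5, and the medium of both groups held no serum and contained 40 ng/ml GDNF, a growth factor for these cells. The 4 control samples also had 5 ng/ml FGF2 in that medium. The 4 treated samples had no FGF2 and received the FGF receptor inhibitor SU5402 for 12 h. SU5402 is known to block the VEGF receptor kinase as well as FGF receptors, and withdrawal and inhibitor were applied together, so their effects cannot be told apart. Each 2-colour array held 1 treated sample in green (Cy3) and 1 control sample in red (Cy5), with no dye swap. A dye effect specific to a probe therefore cannot be told apart from the treatment. A log2 ratio here is treated over control. Nothing in the labels says that replicates came from separate animals or cultures, so p-values measure only the spread between these samples, which may be technical. Below, a treated or control culture means the sample in 1 channel of 1 array, which need not be a separate culture.

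VEGF ligands are secreted proteins that bind tyrosine kinase receptors on endothelial cells and drive the growth of vessels. VEGFA binds the main signalling receptor VEGFR-2, the product of Kdr, and binds the product of Flt1 more tightly, which acts largely as a trap. Angiopoietin 1 activates the receptor TIE2, the product of Tek, and TIE1 is its partner. In the testis, vessels lie outside the seminiferous tubules, and undifferentiated spermatogonia are often found near them.

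Across all tested probes limma called 66.4% of 27692 at an adjusted p under 0.05, with 37.3% higher and 29.1% lower. Across 18436 genes, each represented by its brightest probe, 68.4% were called, 37.5% higher and 30.9% lower. Of the called genes 54.8% were thus higher, and 41.6% with the scanner software's own LogRatio, which moved the median of all tested probes from 0.038 to -0.11. Each array had 26576 to 28459 probes well above background for the treated culture and 25502 to 27863 for the control. Of the 17 probes of the vascular genes, 11 were called higher, 3 lower and 3 neither, which has to be read against that background. Both probes of Angpt1 and the dimmer probes of Cdh5 and Tek passed the filter only through the treated channel, which favours higher ratios. With both channels well above background on all 4 arrays, 8 vascular probes were higher and 3 lower, against 9045 and 7473 of all 24698. In such bulk RNA, fewer cells of a type and less RNA per cell cannot be told apart. The treated and the control levels did not overlap for 13 of the 17, against 59% of all tested probes. These 13 include the Angpt1 and Cdh5 probes that passed only through the treated channel. The medians that follow include probes that passed in this way as well. The median log2 ratio was 0.41 over the 17 probes and 0.12 over the 9 genes, and 0.038 and 0.022 over all probes and genes. Ligands and receptors did not move together: Vegfa and Angpt1 were higher in treated cultures, Kdr was lower, Flt1 went both ways by probe, and Vegfc and Tek did not pass the test. The endothelial genes also divided, with Cdh5 and Emcn higher and Pecam1 lower.

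**Figure D1:**
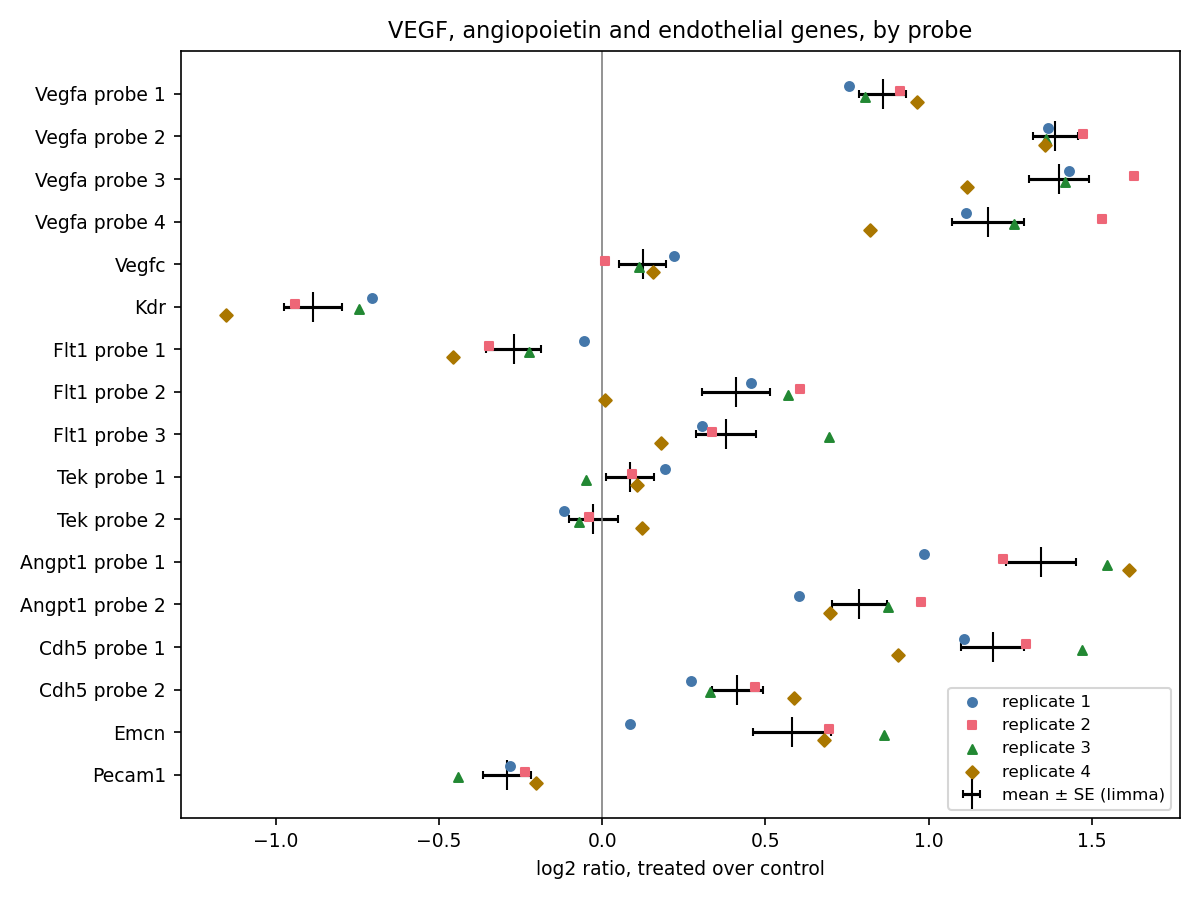
Log2 ratio of treated over control (horizontal axis) for each of the 17 tested probes, with 1 symbol per array and the mean with its SE from limma. Probes of a gene are numbered from the brightest to the dimmest. The 4 probes of Vegfa all lie above 0, that of Kdr lies below 0 on every array, and the 3 probes of Flt1 lie on both sides.

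Vegfa, the main growth factor for endothelial cells, was higher by all of its 4 probes. The most repeated measure came from a probe printed 10 times, at chr17:46155512-46155571 on the minus strand (mm9). Its log2 levels were 13.99, 13.99, 13.98 and 13.99 in the treated cultures of replicates 1 to 4 and 12.62, 12.52, 12.62 and 12.63 in the controls. All 4 treated cultures were higher than all controls, and the treated levels were close to each other. The ratio was 2.62-fold (log2 1.39, SE 0.069, n = 4, limma adjusted p = 2.47e-07). The SD of its repeat spots within an array was 0.011 to 0.021, against 0.056 between arrays.

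The other Vegfa probes read other parts of the same gene. The probe nearest to the start of the gene, at chr17:46169039-46169098, had ratios of 1.11, 1.53, 1.26 and 0.82 (mean 1.18, SE 0.11, limma adjusted p = 1.32e-05). The brightest probe, which is also the most 3′, gave the smallest ratio, with 0.76, 0.91, 0.80 and 0.96 (mean 0.86, SE 0.073, limma adjusted p = 7.71e-06). It was below the probe printed 10 times by 0.53 (SD 0.095) on 4 of 4 arrays. An exact sign-flip permutation test gave p = 0.13, two-sided, which is the smallest value that 4 arrays allow (0.214 after Benjamini-Hochberg adjustment over 12 pairs of probes). The size of the rise among these 3 probes therefore ran from 1.81-fold to 2.62-fold, and its direction was the same for all 4 probes of the gene.

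Vegfc, the ligand of lymphatic vessels, did not pass the test. The log2 levels of its single probe, at chr8:55271533-55271592 on the plus strand (mm9), were 12.87, 12.73, 12.75 and 12.84 in treated cultures and 12.65, 12.72, 12.64 and 12.68 in controls. The groups did not overlap, by a margin far below that of Vegfa. The log2 ratio was 0.12 (SE 0.072, 95% interval -0.039 to 0.29, limma adjusted p = 0.156), and the interval includes 0.

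Angpt1, the ligand that activates TIE2, was higher by both of its probes, with control signals near background. The 2 probes are shown because they read separate parts of the coding sequence, 69.3 kb apart in the genome.
Angpt1 downstream probe: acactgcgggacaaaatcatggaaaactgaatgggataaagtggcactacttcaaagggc
Angpt1 upstream probe: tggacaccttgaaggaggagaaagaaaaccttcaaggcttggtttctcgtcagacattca
The downstream probe lies at chr15:42258569-42258628 and the upstream probe at chr15:42327896-42327955, both on the minus strand (mm9). With the downstream probe the log2 levels were 8.42, 8.44, 8.55 and 8.59 in treated cultures and 7.44, 7.21, 7.00 and 6.98 in controls. The groups did not overlap, and the lowest treated level was well clear of the highest control level. The ratio was 2.54-fold (log2 1.34, SE 0.11, n = 4, limma adjusted p = 5.33e-06), with a control signal well above background on 1 of 4 arrays. The upstream probe gave a log2 ratio of 0.79 (SE 0.083, limma adjusted p = 3.23e-05). Its control signal was well above background on 0 of 4 arrays, and against a floor it was 1.69-fold higher in treated cultures. This floor takes, on each array, the lowest level among probes well above background or the control probe's own level, whichever is higher. It is not a detection limit, since most control signals of the downstream probe lay above it and were not well above background. The true fold can therefore be smaller or larger. With the scanner software's own LogRatio, in which dim signals are not raised by an offset, the log2 ratio was 2.23 for the downstream and 2.43 for the upstream probe, so which of them had the larger ratio turned with the processing.

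Unlike Vegfa and Angpt1, no tested receptor gene of the 10 genes rose by all of its tested probes. Kdr, the gene of the main signalling receptor for VEGFA, was lower on all 4 arrays. Its probe at chr5:76329309-76329368 on the minus strand (mm9), printed 10 times, had log2 levels of 10.77, 10.51, 10.70 and 10.47 in treated cultures and 11.48, 11.45, 11.44 and 11.62 in controls. The groups did not overlap, and replicate 4 had both the lowest treated and the highest control level. The ratio was 1.85-fold lower (log2 -0.89, SE 0.090, n = 4, limma adjusted p = 2.5e-05). Repeat spots within an array differed with an SD of 0.021 to 0.033, and arrays with an SD of 0.21. Another probe named for Kdr, 28.3 kb upstream, was designed on a cDNA clone from ovary and was not well above background on any array.

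Flt1, the gene of the decoy-like VEGF receptor, was measured by 3 probes that moved in different directions. The gene is known to give a full-length receptor and shorter secreted forms whose transcripts end upstream. The brightest probe, at chr5:148449781-148449840 on the minus strand (mm9), is listed in the files for a separate complete cDNA and not for the RefSeq transcript of the gene. The files describe that cDNA as a complete coding sequence of Flt1 and do not say which form of the receptor it encodes. Its log2 levels were 13.23, 12.74, 12.89 and 12.91 in treated cultures and 13.29, 13.09, 13.11 and 13.37 in controls. Treated cultures were lower than their own controls on 4 of 4 arrays, while the groups overlapped. The ratio was -0.27 (SE 0.084, limma adjusted p = 0.0175).

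The other Flt1 probes are listed for the RefSeq transcript and lie 76.0 kb downstream, at chr5:148373791-148373850 and chr5:148373864-148373923. They lie side by side and so read the same stretch of RNA. The first had log2 levels of 12.76, 12.87, 12.80 and 12.66 in treated cultures and 12.31, 12.26, 12.23 and 12.65 in controls. The groups were separated by a narrow margin, since control replicate 4 stood almost as high as its treated partner. The ratios were 0.41 (SE 0.10, limma adjusted p = 0.00679) and 0.38 (SE 0.093, limma adjusted p = 0.00553), both higher. On every array the upstream probe had the lower ratio, by 0.68 (SD 0.23) against the first and by 0.65 (SD 0.23) against the second. The exact sign-flip permutation test gave p = 0.13 for each, the smallest value that 4 arrays allow (0.214 after adjustment over 12 pairs). A statement that Flt1 fell thus holds for 1 probe, whose call ended without replicate 2 (-0.25, limma adjusted p = 0.076), without replicate 4 (-0.21, limma adjusted p = 0.0648) and with arrays centred on the median instead of loess (-0.25, limma adjusted p = 0.213). With the scanner LogRatio it was at -0.46 (limma adjusted p = 0.00311). The calls of both downstream probes ended with the scanner LogRatio (0.23 and 0.20, limma adjusted p = 0.0955 and 0.128) and with median-centred processed signals (0.28 and 0.25, limma adjusted p = 0.101 and 0.15). A constant shift of a whole array does not change the difference between probes read on it, but loess depends on signal level and can change it. With arrays centred on the median, the upstream probe was at -0.25 and the downstream probes at 0.46 and 0.47, so the direction of the difference was kept.

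**Figure D2:**
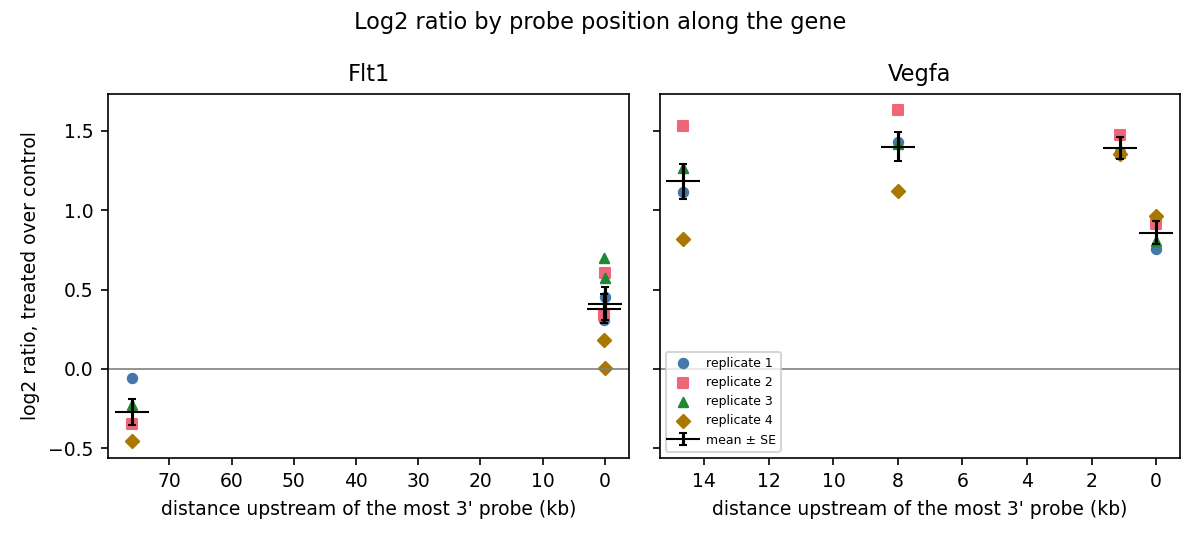
Log2 ratio of treated over control (vertical axis) against the distance of each tested probe upstream of the gene's most 3′ probe (horizontal axis, kb), for Flt1 and Vegfa, with 1 symbol per array and the mean with its SE. For Flt1 the probe 76.0 kb upstream is below 0 and the pair at the 3′ end is above 0 on all 4 arrays. For Vegfa all 4 positions are above 0.

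Tek, the gene of the angiopoietin receptor TIE2, did not pass the test with either probe. Its upstream probe, at chr4:94408487-94408546 (mm9), had log2 levels of 7.55, 7.39, 7.42 and 7.41 in treated cultures and 7.36, 7.30, 7.47 and 7.31 in controls. The groups overlapped. The ratio was 0.085 (95% interval -0.081 to 0.25, limma adjusted p = 0.328), and the probe at chr4:94540861-94540919 gave -0.027 (95% interval -0.19 to 0.14, limma adjusted p = 0.764). Both levels were near background, with the control signal well above it on 3 and 2 of 4 arrays. Tie1, which encodes the partner receptor, had 1 probe, which was not well above background in either channel. Its log2 levels lay between 6.65 and 6.86 in treated cultures and between 6.56 and 6.80 in controls, and no ratio was tested. Its sequence is printed because it is the only measure of this gene.
Tie1 probe: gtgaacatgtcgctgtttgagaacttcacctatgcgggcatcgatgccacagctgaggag

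Cdh5 encodes VE-cadherin, the adhesion protein of endothelial junctions, and was higher by both of its probes. The brighter one, at chr8:106668159-106668218 on the plus strand (mm9), had log2 levels of 10.67, 10.61, 10.58 and 10.50 in treated cultures and 9.56, 9.31, 9.11 and 9.59 in controls. Treated levels lay together and clear of the controls, which were more spread. The ratio was 2.29-fold (log2 1.20, SE 0.097, n = 4, limma adjusted p = 5.72e-06). The dimmer probe, at chr8:106667499-106667558, gave 0.41 (SE 0.079, limma adjusted p = 0.00132). Its control signal was well above background on 0 of 4 arrays. Against the kind of floor used for Angpt1, which is not a detection limit, it was 1.30-fold higher in treated cultures. With the scanner LogRatio it gave 1.38 and the brighter probe 1.11. The order of the ratios of these probes thus turned with the processing.

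Emcn encodes endomucin, a sialomucin of venous and capillary endothelium. Its probe, at chr3:137093811-137093870 on the plus strand (mm9), had log2 levels of 8.25, 8.51, 8.54 and 8.57 in treated cultures and 8.17, 7.81, 7.68 and 7.89 in controls. Replicate 1 stood apart in both channels, with a log2 ratio of 0.086 against 0.68 to 0.86 on the other arrays. The groups did not overlap. The ratio was 1.5-fold (log2 0.58, SE 0.12, limma adjusted p = 0.00207). This call was lost with the scanner LogRatio (0.40, limma adjusted p = 0.298).

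Pecam1 encodes PECAM-1, an adhesion protein of endothelial cells that platelets and leukocytes also carry. Its probe is shown because the 60 bases cover a stretch of 1854 bases in the genome, chr11:106542389-106544242 on the minus strand (mm9), and so cross a splice junction that only spliced RNA holds.
Pecam1 junction probe: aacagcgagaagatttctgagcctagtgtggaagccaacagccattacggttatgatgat
The log2 levels were 7.43, 7.64, 7.46 and 7.42 in treated cultures and 7.71, 7.88, 7.91 and 7.63 in controls. Treated cultures were lower than their own controls on 4 of 4 arrays, and the groups overlapped by a little. The ratio was 1.22-fold lower (log2 -0.29, SE 0.074, n = 4, limma adjusted p = 0.00677). It was -0.64 with the scanner LogRatio, and with arrays centred on the median instead of loess the call ended (-0.27, limma adjusted p = 0.107). The other probe named for Pecam1, at chr11:106543058-106543117, lies by position between the outer ends of the junction probe. The files describe its cDNA clone as the product of another gene, a disintegrin and metalloprotease domain 28. This other probe was not well above background on any array.

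**Figure D3:**
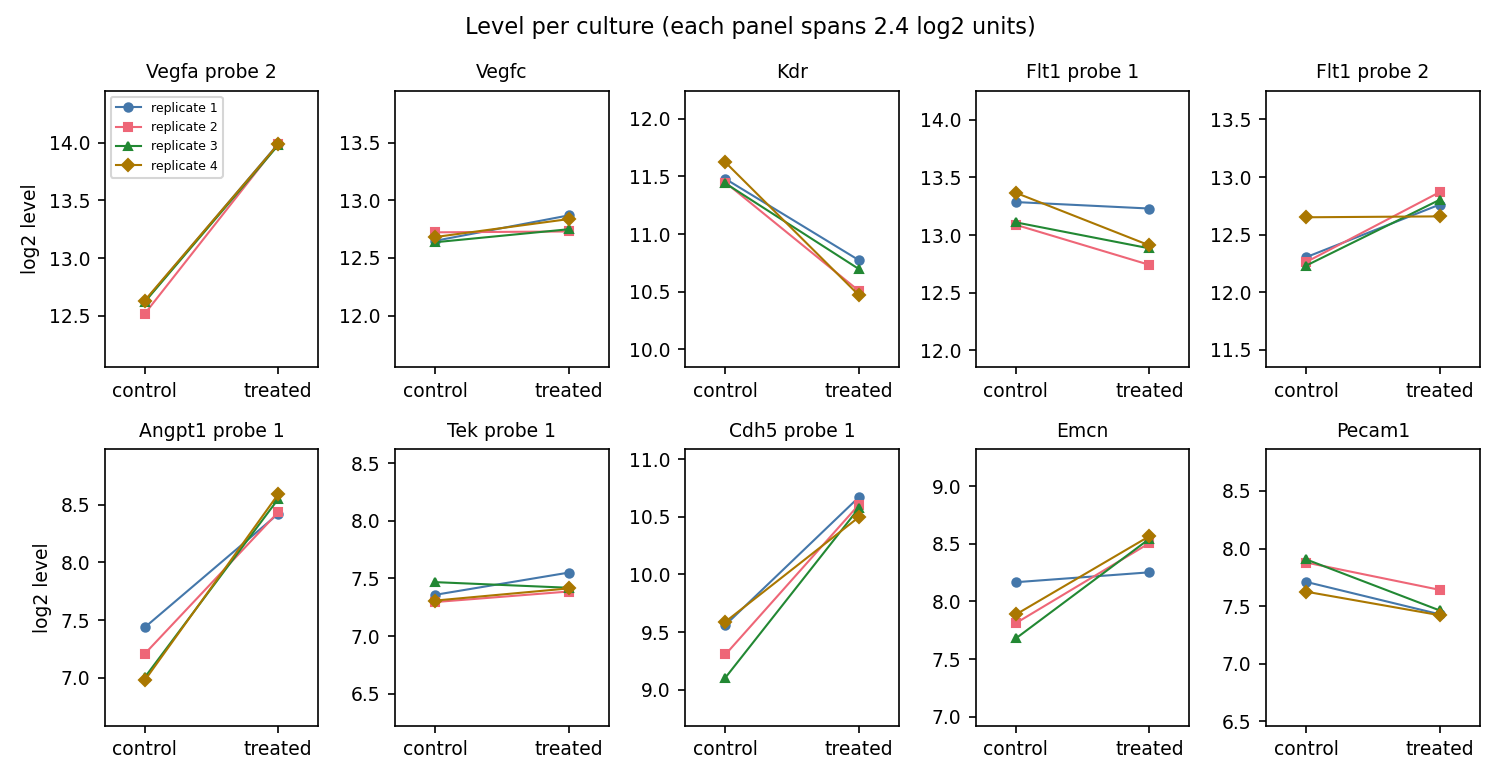
Log2 level in the control and the treated culture of each array (joined by a line) for 10 probes of the 9 tested genes, with the same log2 span in every panel. Lines rise for Vegfa, Angpt1, Cdh5 and Emcn, fall for Kdr and Pecam1, and fall for the first but rise for the second probe of Flt1.

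Promoter sequences were matched by symbol in a RefSeq table (GRCm38.p6), which held 7 of the 10 genes. Angpt1, Cdh5 and Pecam1 were not among them. Those of Vegfa, Kdr and Flt1 are shown because a ligand that rose can be set beside its receptors, of which 1 fell and 1 went both ways. Each is the 250 bases before the annotated start, and capitals mark GC boxes (GGGCGG on either strand), a site known to bind SP1.
Vegfa promoter: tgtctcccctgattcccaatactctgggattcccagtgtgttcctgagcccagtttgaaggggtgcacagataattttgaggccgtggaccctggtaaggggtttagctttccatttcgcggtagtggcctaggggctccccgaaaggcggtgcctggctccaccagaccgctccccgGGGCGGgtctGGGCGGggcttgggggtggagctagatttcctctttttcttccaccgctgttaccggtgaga
Kdr promoter: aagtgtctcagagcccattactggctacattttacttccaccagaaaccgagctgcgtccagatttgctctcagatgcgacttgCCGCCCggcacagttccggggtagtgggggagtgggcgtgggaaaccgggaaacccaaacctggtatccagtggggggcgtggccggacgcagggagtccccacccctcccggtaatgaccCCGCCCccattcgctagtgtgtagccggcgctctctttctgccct
Flt1 promoter: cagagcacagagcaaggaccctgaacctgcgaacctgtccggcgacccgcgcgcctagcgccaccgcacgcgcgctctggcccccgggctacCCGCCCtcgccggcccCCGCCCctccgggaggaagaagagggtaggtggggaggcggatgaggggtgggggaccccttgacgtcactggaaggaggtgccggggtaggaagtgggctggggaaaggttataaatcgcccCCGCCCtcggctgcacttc
They lie at chr17:46032378-46032627, chr5:75978456-75978705 and chr5:147726012-147726261, all on the minus strand (GRCm38.p6). The windows held 2, 2 and 3 GC boxes, while 32.7% of all 32851 promoter windows of this length held at least 1. Of the 7 matched genes, 4 had a GC box: these 3 and Vegfc. The core letters of the HIF site (ACGTG, either strand) stood in none of these 3 windows, in 16.6% of all windows, and in a window at another start of Vegfa. A match describes letters only.

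Of the 8 other tested genes of the VEGF and angiopoietin system, 7 were higher and 1 was lower. Over all genes 37.5% were higher and 30.9% lower, and the count of each list from here on has to be read against these shares. With Vegfa and Vegfc counted in, of the 5 VEGF family ligands 3 were higher, 1 was lower and 1 was not called, with a median log2 ratio of 0.85. Vegfd, a ligand of lymphatic vessels, had log2 levels of 14.17, 14.02, 14.18 and 14.20 in treated cultures and 11.50, 11.46, 11.65 and 11.62 in controls. The groups lay far apart on all arrays, with a log2 ratio of 2.59 (SE 0.067, limma adjusted p = 8.64e-09). Vegfb, which binds only the FLT1 receptor of this family, was at 0.85 (SE 0.089, limma adjusted p = 2.76e-05), and at 0.25 with its second brightest probe. Pgf, placental growth factor, which also binds FLT1, had ratios of -0.61, -0.45, -1.02 and -0.81 and was lower (mean -0.72, SE 0.097, limma adjusted p = 0.000136).

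Of the VEGF receptors and co-receptors, Kdr and Flt1 included, 2 were higher and 2 lower among 4 tested, with Kdr and the brightest probe of Flt1 as the lower ones. Flt4, the receptor for VEGFC and VEGFD, had no tested probe. Nrp1, a co-receptor for VEGFA and for semaphorins, was higher with ratios of 1.72, 2.10, 2.21 and 1.94 (mean 1.99, SE 0.089, limma adjusted p = 1.03e-07), and at 1.10 with its second brightest probe. Nrp2, a co-receptor for VEGFC, was higher by 1.03 (SE 0.074, limma adjusted p = 2.14e-06).

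Of the angiopoietins and TIE receptors, Angpt1 and Tek included, 4 of 5 tested genes were higher and 0 lower (median of the log2 ratios 1.23). Angpt2, which mostly opposes angiopoietin 1 at TIE2, had log2 levels of 12.01, 11.94, 11.76 and 11.96 in treated cultures and 10.39, 10.34, 10.25 and 10.37 in controls. The levels of both groups were tight, and the ratio was 1.58 (SE 0.066, limma adjusted p = 6.82e-08). Angpt4, a further ligand of TIE2, was at 1.23 (SE 0.091, limma adjusted p = 2.72e-06), and at 1.99 with the scanner LogRatio. Its control levels of 7.46, 7.19, 7.30 and 7.12 were near background, and well above it on 3 of 4 arrays. Ptprb, the endothelial phosphatase that acts on TIE2, was at 0.43 (SE 0.091, limma adjusted p = 0.00249), and at 0.28 with the scanner LogRatio. So 3 ligand genes of TIE2 rose in cultures in which its own gene was near background and did not pass the test. Of these ligands, Angpt1 and Angpt4 had control signals near background as well.

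A wider list of 32 other endothelial genes showed no common direction. Of the 31 tested, 10 were higher and 15 lower, against 37.5% and 30.9% over all genes. Prox1 and Icam2, among the higher ones, passed the filter only through the treated channel. Tal1, among the lower ones, passed it only through the control channel. Such a pass favours the direction seen. A further 6 were not called, the median of the log2 ratios over the 31 was -0.15, and Sele had no tested probe. Their summed level, in linear units of the normalized signal, ran from 108826 to 111066 in treated cultures and from 160529 to 169989 in controls. Such sums follow their brightest genes: Tm4sf1 alone made up 35.1% of this one in controls, and without it the sums were 82475 to 85736 and 105651 to 110962. The 3 largest rises were Robo4, a guidance receptor of endothelial cells (2.10), Fli1, an ETS transcription factor (1.61, and 0.99 with its second brightest probe), and Ecscr, an endothelial surface protein (1.32). The 3 largest falls were Sox18 and Sox7, transcription factors of developing vessels (-2.04 and -1.60), and Plvap, the protein of capillary diaphragms (-1.88). Each of these 6 was called by limma with an adjusted p of at most 5.36e-07. With the scanner LogRatio 10 were higher and 18 lower, and with arrays centred on the median instead of loess 10 and 12.

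**Figure D4:**
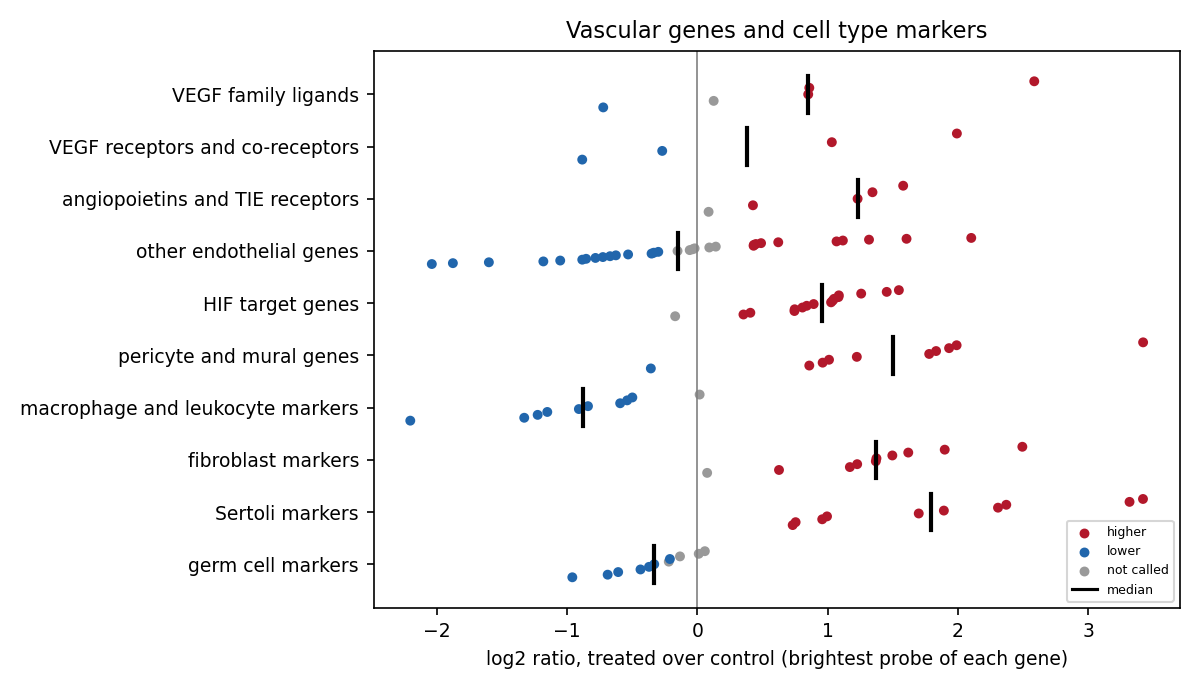
Log2 ratio of treated over control (horizontal axis) for the tested genes of each list, 1 point per gene by its brightest probe, coloured by the limma call, with the list's median as a bar. The other endothelial genes spread from -2.04 to 2.10, and the HIF targets lie above 0 except for 1 gene.

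Genes known to be induced with Vegfa by the hypoxia factor HIF were mostly higher as well. Of 16 tested, 15 were higher and 0 lower (median of the log2 ratios 0.96), against 37.5% higher over all genes. The largest rises were Pdk1, which limits pyruvate oxidation (1.55), Bnip3, a mitophagy receptor (1.45), and Pfkfb3, an activator of glycolysis (1.26, and 0.65 with its second brightest probe). With arrays centred on the median instead of loess 13 were higher, and Slc2a1 and Ldha turned from 0.41 and 0.35 to -0.028 and -0.22. Ldha was at 1.16 with its second brightest probe and at 0.75 with the mean of its probes. With the scanner LogRatio 15 of the 16 genes were higher and 1 lower. Their summed level ran from 907487 to 947658 in treated cultures and from 523799 to 589680 in controls. The labels give no oxygen measurement.

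Markers of other cell types moved on the same arrays, and their part in the results above was not tested. The counts of all these marker lists stand against 37.5% higher and 30.9% lower over all genes. Of 10 macrophage and leukocyte markers, 9 were lower and 0 higher (median -0.88), led by Adgre1, a surface receptor of macrophages (-2.21), Cd14, a lipopolysaccharide co-receptor (-1.33), and Fcer1g, the Fc receptor gamma chain (-1.23). Their summed level ran from 52513 to 65587 in treated cultures and from 124655 to 149255 in controls. Lyz2 made up 83.1% of that sum in controls, and without it the sums were 9583 to 10020 and 20884 to 23998. Of 10 pericyte and mural genes 9 were higher and 1 lower (median 1.5). Abcc9, among the higher ones, passed the filter only through the treated channel, which favours a higher ratio. Its control signal was well above background on 1 of 4 arrays. The largest rises were Kcnj8, a potassium channel of pericytes (3.42), Acta2, smooth muscle actin (1.99), and Pdgfrb, the receptor for PDGF-B (1.93). With their second brightest probes Kcnj8 and Acta2 were at 0.84 and 1.01. Mcam, an adhesion protein that endothelial cells also carry, was the lower one (-0.36), a call lost with median-centred processed signals (-0.32, limma adjusted p = 0.0556). The summed levels were 298835 to 347828 in treated cultures against 122139 to 126505 in controls, and 112315 to 122400 against 72256 to 77491 without Acta2, the brightest.

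Of 10 fibroblast markers 9 were higher and 0 lower (median 1.37), led by the matrix genes Fbn1 (2.49), Lum (1.90) and Col1a1 (1.62, and 1.00 with arrays centred on the median instead of loess). Their summed level ran from 1433820 to 1552276 in treated cultures and from 563896 to 640895 in controls. All 10 Sertoli cell markers were higher (median 1.80), led by Cldn11, a claudin of the blood-testis barrier (3.42), Dhh, the testicular hedgehog ligand (3.32), and Wt1, a transcription factor of Sertoli cells (2.37). Their sum ran from 691154 to 762532 in treated cultures and from 226408 to 250336 in controls. Every marker of these 4 lists had a tested probe. Fshr of the Sertoli list passed the filter only through the treated channel, which favours a higher ratio. Its control signal was well above background on 1 of 4 arrays. Of 11 tested germ cell markers, each well above background on all arrays in both channels, 7 were lower and 0 higher (median -0.33). The largest falls were Lhx1, a transcription factor regulated by GDNF in these cells (-0.96, and -0.63 with its second brightest probe), Kit, a receptor of differentiating spermatogonia (-0.69), and Ret, the signalling receptor for GDNF (-0.61, and -1.13 with the scanner LogRatio). The sum of the germ cell markers ran from 182338 to 190623 in treated cultures and from 231829 to 262094 in controls. Zbtb16 of that list is not analysed here. Of the receptor and endothelial surface genes among the 10, the brightest probes of Kdr, Flt1, Cdh5, Emcn and Pecam1 were well above background in both channels of all 4 arrays. That of Tek was so on 4 arrays for treated and 3 for control, and that of Tie1 on 0 for either. The Pecam1 levels, 7.42 to 7.91, lay close to those of this Tek probe, 7.30 to 7.55.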

How the data were processed

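RNA of 4 treated and 4 control samples was measured on 4 two-colour Agilent mouse arrays. All 4 arrays lay on 1 slide and were read in 1 scan, per the file headers, so no such batch divided them. Per the file headers, spots were read by Agilent Feature Extraction 10.5.1.1, and the mean signal, the local background and the processed signal are intensity values on a linear scale. Per the file headers, the deposited LogRatio values are on a log10 scale, red divided by green. The series matrix deposited by the authors holds log2 values, which lay within 0.05 of log2 of green over red processed signal for at least 99.9% of 41174 probes on each array. Its column medians were -0.26, 0.011, 0.11 and -0.058, so it was not centred. Probe positions are those of the files (mm9), and no genome was used.

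Of 45018 spots, 1639 were control spots, and 141 to 171 others per array, marked as outliers, were left out. The signals were corrected by normexp (offset 50), loess was run within arrays, and the spots of a probe were averaged. Levels per channel followed Aquantile scaling. Tests covered probes with a value on all 4 arrays that passed the scanner's background mark on 3 or more of them in one channel. They used limma 3.58.1 in R 4.3.3, two-sided, with Benjamini-Hochberg adjustment over all probes or genes. Procedures were tested on simulated data. Names came from the files, updated by RefSeq accession (25097 probes) or symbol (7973), with 8104 left as in the file. The members and gene lists were chosen with earlier results of these data known. All members are named with all probes, as are all genes of the VEGF and angiopoietin lists. Of the other lists, up to 3 of the largest called rises and falls are named, and any other gene of them was named after its values were seen. The alternatives were other normalizations, offsets, filters, ways to join probes, and leaving out each array. The details of 1 Vegfa probe are not reported here.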

Additional observations from a re-analysis of the deposited data

Results flagged for a closer look

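The Vegfa probe printed 10 times had 1 array apart from the others, with a gap of 0.911 of its whole range against a limit of 0.829 for 4 values. Replicate 2 had a log2 ratio of 1.47, and the other arrays lay between 1.36 and 1.37. Of 17 probes checked it was the only one that met this rule, where chance picks about 1 in 20. Without replicate 2 the ratio was 1.36, so its direction and call did not rest on that array.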

How the results depend on the processing

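Across the alternatives, called values of member probes kept their direction and call in 139 of 151 comparisons with the reported value and lost the call in 12. Called values of member genes kept them in 79 of 87, lost the call in 6 and changed sign in 2. Values that were not called stayed uncalled in all 31 comparisons for probes and all 24 for genes, and changed sign in 4 of each. Vegfc was at -0.055 with the scanner LogRatio. Both sign changes of called genes were of Flt1, at 0.17 with the mean of its tested probes (limma adjusted p = 0.0846) and at 0.41 with its second brightest probe.

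With arrays centred on the median instead of loess, 4883 probes and 3571 genes were called lower, against 8065 and 5704. Of the members 1 probe and 1 gene were then called lower, against 3 and 3, and Slc2a1 (-0.028) and Ldha (-0.22) changed sign. With the second brightest probe, which only genes with several probes have, 2472 genes were higher and 1778 lower, 0 of the members was lower, and Etv5 (-0.57) and Vwf (0.0049) changed sign. Etv5 was at -0.26 with the mean of its probes, and Prox1 was at -0.094 without a filter on dim probes. For Etv5, Vwf and Prox1 these settings read other probes of the gene. For Prox1 it was a brighter probe that the filter had left out. Why probes of a gene differ, and why Slc2a1 and Ldha changed sign, was not tested.

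The scanner LogRatio moved the median of all tested probes from 0.038 to -0.11, and the share of called genes that were higher from 54.8% to 41.6%. Leaving out each array gave 9446 to 10107 probes higher and 6835 to 7760 lower, and 6438 to 6737 genes higher and 4994 to 5386 lower. Of the members, 11 probes and 4 genes were higher each time, and 2 to 3 probes and 2 to 3 genes lower. Dim control signals limit the fold changes of Angpt1 and Cdh5, and the level of Tie1 was not detectable above background.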
